A study of Bos taurus with 9 samples.

Results

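F-box proteins are the interchangeable subunits with which an SCF ubiquitin ligase recognises its substrates. The adaptor SKP1 ties the F-box protein to the cullin CUL1, whose RING partner RBX1 recruits the ubiquitin-conjugating enzyme, so the F-box protein decides which protein is marked for degradation. Members named FBXW carry WD40 repeats, members named FBXL carry leucine-rich repeats and members named FBXO carry other domains or none that is recognised. In the follicle, substrates of such ligases include cell cycle regulators and the transcription factor FOXO1, through which granulosa cells answer growth signals.

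The genes described here are those whose platform symbol is FBXO, FBXW or FBXL followed by a number. They comprised 78 probes for 57 genes, of 43794 probes and 15229 named genes on the array. By family there were 51 probes for 35 FBXO genes, 20 probes for 16 FBXL genes and 7 probes for 6 FBXW genes. The symbol alone decided whether a probe belonged, and this set of symbols was taken up with earlier results of these data known.

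Granulosa cells line the follicle and make oestradiol. They were aspirated by ovum pick-up from dominant follicles of Holstein-Friesian cows 42 hours after an injection of prostaglandin F2α. The 3 groups were cells taken 30, 60 and 90 days after calving, with 3 arrays each, and the cells of all groups had the same breed, injection and collection. Each array held RNA of its day in Cy5 and RNA of cells taken 120 days after calving in Cy3. A log2 ratio above 0 thus means a higher level at that day than at 120 days. The dyes were never swapped. In a ratio against 120 days, a probe that favours a dye and a true difference cannot be told apart.

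A tube of aspirated cells is a mixture, and fewer cells of a type cannot be told apart from less RNA per cell. Among the granulosa markers, CYP19A1, INHA, INHBA and FST were above background in both channels on all 9 arrays. Markers of other cells were present too. The median log2 ratio of 14 macrophage and monocyte markers ran from -1.23 to 2.48 over the arrays and lay above 1 on replicates 2 and 3 at 30 days and on replicate 1 at 90 days. That of 15 granulosa markers ran from -0.69 to 1.89 and was lowest on the same 3 arrays. Markers of epithelium, with a median ratio below 0 on all 9 arrays (from -3.64 to -0.09), and of neutrophils were among them. By their Cy3 signals the arrays fell into 3 sets that each appeared to share a 120-day RNA, 1 array of every day in each set. Replicates 1 and 2 of 90 days lay in the sets of replicates 2 and 1 of the other days. The arrays were taken as their files are named. The authors' deposited value table goes against those names, since its column for replicate 3 of 30 days correlated best with the channel difference of replicate 2 of 60 days (r = 0.919). Its column for replicate 3 of 90 days did so with replicate 1 of 90 days (r = 0.91). Most other columns correlated best with a difference between channels of different arrays. Each value by day below rests on the file names.

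A probe was tested when either channel lay more than 2 SD above the negative controls on 3 arrays or more. Of the 78 F-box probes 72 were tested, and they covered 55 of the 57 genes. The only probes of FBXO31 and FBXW9 stayed near background and were not tested, nor was 1 of several probes each for FBXL21, FBXO16, FBXO36 and FBXO47. In Cy5 21 probes were above background on all 9 arrays, in Cy3 16, and no F-box spot was saturated. The number of F-box probes above background ran from 22 to 68 per array in Cy5 and from 16 to 67 in Cy3. The lowest Cy5 number belonged to replicate 1 at 30 days (28.2% of F-box probes, against 29.8% of all probes). The lowest Cy3 number belonged to replicate 3 at 60 days (20.5% against 20.9%). On that array the Cy3 threshold from the negative controls was 800, over a median signal of 474, so most 120-day spots there count as dim.

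Most F-box genes had ratios near 0 on each day. The median log2 ratio of the 72 probes was 0.02 at 30 days, 0.04 at 60 days and 0.00 at 90 days, against 0.00, -0.02 and 0.00 for all 38823 probes tested. The median size of the log2 ratio without its sign was 0.15, 0.19 and 0.13, against 0.15, 0.20 and 0.12 for all probes. A few genes stood far outside this range, with FBXO18 and FBXW5 at the upper end and FBXO9 at the lower end on every day.

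**Figure D1:**
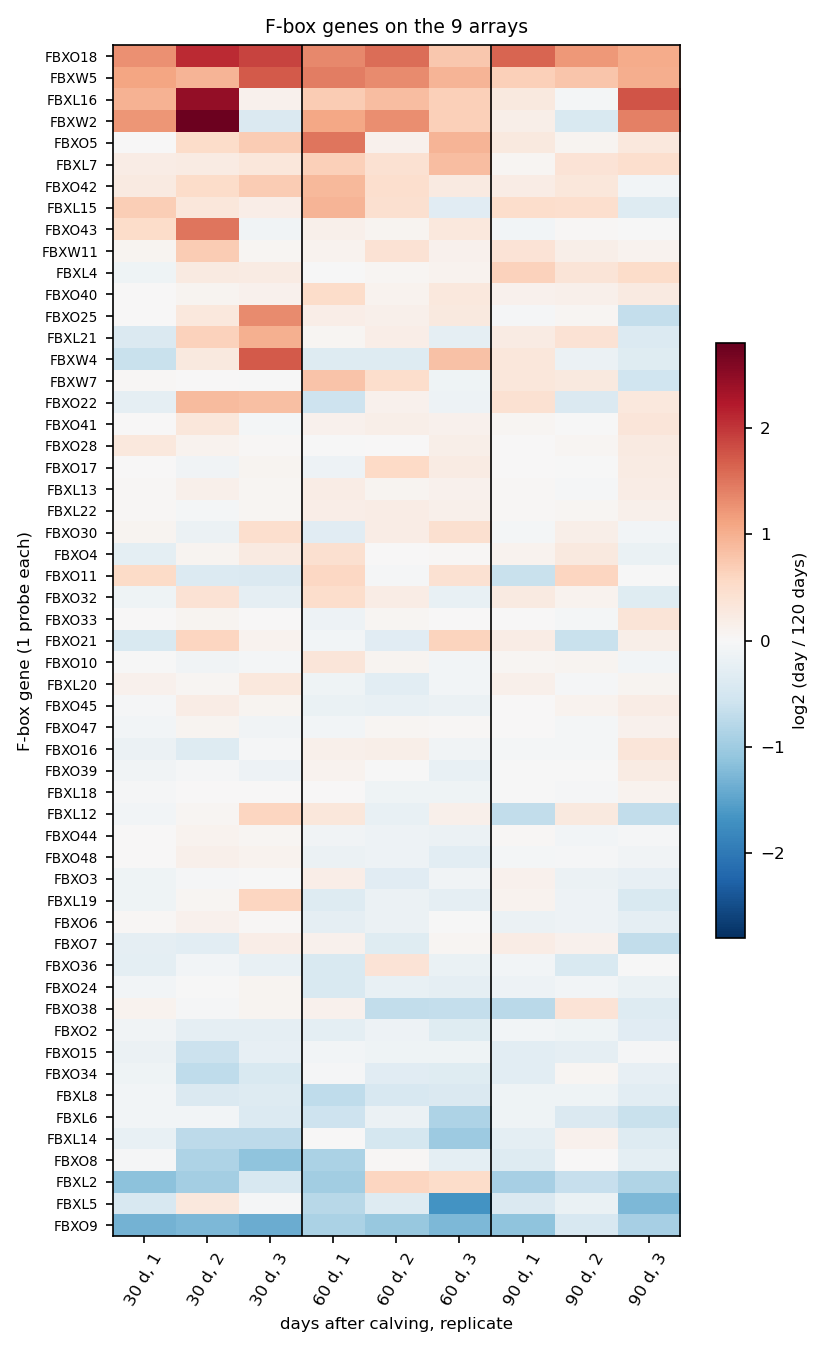
Log2 ratio of the day's RNA to 120-day RNA for 55 F-box genes (rows, each by its brightest tested probe) on the 9 arrays (columns, by day and replicate), in colour from blue (lower than at 120 days) to red (higher), with rows ordered by their mean. FBXO18 and FBXW5 are red and FBXO9 is blue on all 9 arrays, and most rows are pale.

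By their brightest probe, FBXO18 and FBXW5 were higher and FBXO9 was lower at both 30 and 60 days than at 120 days. FBXO18, which the RefSeq gene table lists as FBH1, couples an F-box to a DNA helicase that restrains homologous recombination in human cells. FBXW5 is a WD40 receptor whose known targets in human cells include the actin regulator EPS8 and the centriole protein SASS6. FBXO9 directs the turnover of TELO2 and TTI1, which stabilise kinases of the mTOR family, in human cells. These 3 genes were singled out with results of the same arrays known, so their calls are given as a description.

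The brightest FBXO18 probe (EMBV3_21017) had log2 ratios of 1.28, 2.09 and 1.89 on the 30-day arrays. The 60-day arrays read 1.34, 1.57 and 0.76. The 90-day arrays read 1.63, 1.22 and 1.04. All 9 ratios were above 0, and the ranges of the 3 days overlapped. By this probe the signal was 3.37-fold higher at 30 days (log2 1.75 ± 0.20 SE, n = 3, limma adjusted p = 0.0426) and 2.33-fold higher at 60 days (1.22 ± 0.20, limma adjusted p = 0.0142). At 90 days the ratio was 1.29 ± 0.20 and did not pass (limma adjusted p = 0.21), a larger value than the one that passed at 60 days. The fainter probes of FBXO18 did not pass on any day and are given with the other disagreeing probes. At 30, 60 and 90 days EMBV3_02646 had mean ratios of -0.19, -0.01 and -0.20, and EMBV3_29258 had 0.52, 0.30 and 0.38.

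FBXW5 (EMBV3_13862, its only probe) had log2 ratios of 1.11, 0.96 and 1.73 on the 30-day arrays. The 60-day ratios were 1.44, 1.32 and 0.96, and the 90-day ratios 0.66, 0.77 and 1.01. Every array again lay above 0, and the 90-day values reached into the range of the other days with 1 array. FBXW5 was 2.41-fold higher at 30 days (1.27 ± 0.16, limma adjusted p = 0.0438) and 2.36-fold higher at 60 days (1.24 ± 0.16, limma adjusted p = 0.00876). At 90 days its log2 ratio of 0.82 ± 0.16 did not pass (limma adjusted p = 0.286).

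FBXO9 (EMBV3_26531, its only probe) gave the tightest 30-day values of the 3 genes, at -1.33, -1.26 and -1.39. Its 60-day ratios were -0.88, -1.06 and -1.25, and its 90-day ratios -1.13, -0.45 and -0.93. All 9 lay below 0, and the 30-day arrays were lower than each array of the other days. FBXO9 was 2.52-fold lower at 30 days (-1.33 ± 0.13, limma adjusted p = 0.0261) and 2.09-fold lower at 60 days (-1.06 ± 0.13, limma adjusted p = 0.00803). At 90 days the log2 ratio of -0.84 ± 0.13 did not pass (limma adjusted p = 0.199), although it had the lowest p of the 72 probes in that comparison.

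FBXO25 completed the group of large ratios. It is a relative of the muscle atrophy gene FBXO32 and targets cardiac transcription factors in the mouse. One of its 4 probes (EMBV3_25051) had 30-day log2 ratios of 1.02, 1.25 and 1.53. Its 60-day ratios were 1.48, 1.10 and 0.50, and its 90-day ratios 0.42, 0.59 and 0.22. The 30-day and 90-day arrays did not overlap, with 0.59 as the highest 90-day value and 1.02 as the lowest 30-day value. The probe was 2.04-fold higher at 60 days (1.03 ± 0.18, limma adjusted p = 0.0159). Its 30-day mean of 1.27 ± 0.18 and its 90-day mean of 0.41 ± 0.18 did not pass (limma adjusted p = 0.0589 and 0.447).

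**Figure D2:**
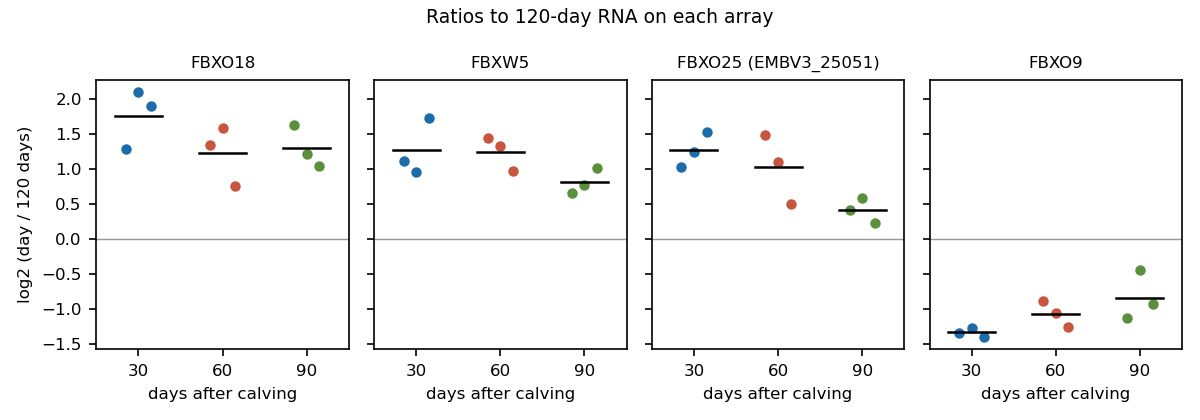
Log2 ratio of the day's RNA to 120-day RNA on each array (points, left to right replicates 1 to 3) at 30, 60 and 90 days after calving for FBXO18 (EMBV3_21017), FBXW5, the FBXO25 probe EMBV3_25051 and FBXO9, with the mean of each day as a bar. The points of FBXO18, FBXW5 and FBXO25 all lie above 0, those of FBXO9 all lie below 0 between -1.39 and -0.45, and the FBXO25 probe is lowest at 90 days.

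The channels were also read apart, as log2 signals normalised between arrays. Each channel kept its dye, so a gap between channels cannot be told apart from a probe that favours a dye. For FBXO9 the 120-day signal was nearly the same on all arrays, from 11.17 to 11.60, and the signal of the day ran from 9.83 to 10.75. The channels of FBXO9 did not overlap on any pair of arrays. For FBXW5 the 120-day signal ran from 9.24 to 10.04 and that of the day from 10.26 to 11.52, again without overlap. The FBXO18 channels did overlap between arrays, as its 120-day signal ran from 10.23 to 11.93 and the day signal from 11.27 to 13.70. Both FBXO18 channels were at their dimmest on replicate 3 at 90 days, and the ratio there was still 1.04. The FBXO25 probe was fainter, at 8.13 to 8.97 for 120 days and 8.78 to 10.49 for the day.

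**Figure D3:**
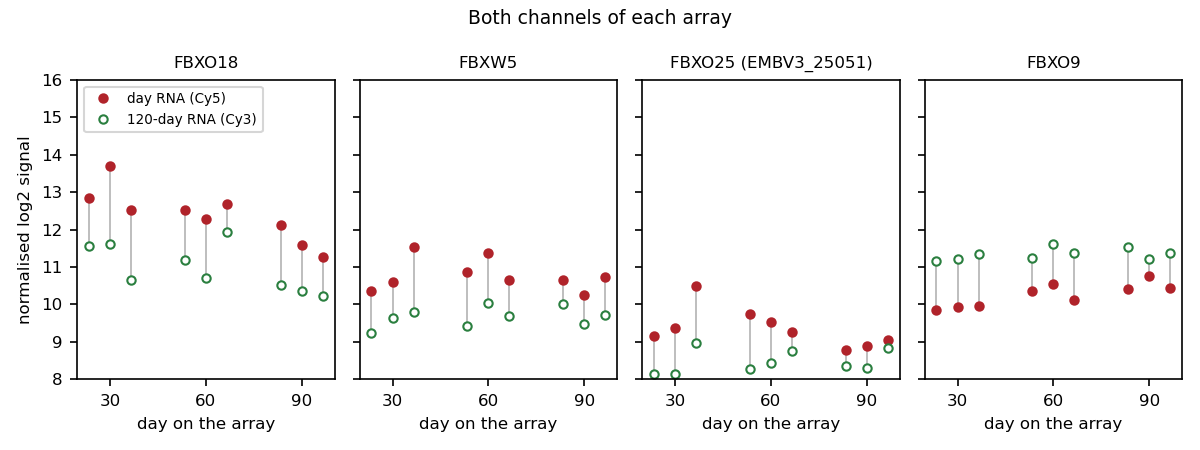
Normalised log2 signal of both channels of each array, with the day's RNA (Cy5) as filled points, the 120-day RNA (Cy3) as open points and a line joining the channels of an array, for the same 4 probes. The day's RNA is above the 120-day RNA on all 9 arrays for FBXO18, FBXW5 and FBXO25 and below it for FBXO9, whose 120-day points stay between 11.17 and 11.60. Signals of different probes are not comparable.

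At 30 days 3 of the 72 F-box probes passed (4.17%), FBXO18 and FBXW5 higher and FBXO9 lower, where 0.203% of all tested probes passed, 0.0953% higher and 0.108% lower. In genes, each by its brightest tested probe, these were 3 of 55 where 0.287% of all genes passed, 0.098% higher and 0.189% lower. An unadjusted p under 0.05 was reached by 18 of the 72 (25%) against 20.6% of all probes. Beyond the members already given, the lowest log2 ratios belonged to FBXL2 (-0.85 ± 0.29) and FBXO8 (-0.67 ± 0.23), which did not pass (limma adjusted p = 0.197 and 0.199). FBXL2 is a lipid-anchored receptor and FBXO8 carries a Sec7 domain as found in activators of ARF proteins. FBXL2 had ratios of -1.15, -0.95 and -0.45 at 30 days, and FBXO8 -0.03, -0.87 and -1.12.

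The 30-day count was 0 when arrays were centred on the median without loess, with trend and robust moderation, with the replicate number as a block, with the 30-day arrays alone and without replicate 2 or 3 of either 30 or 60 days, and it was 5 with the 120-day RNA as a block, 7 without background correction, 1 by the mean of a gene's probes and between 1 and 2 without any other array. Without the 3 arrays of high macrophage markers the 30-day ratios were 1.28 for FBXO18, 1.12 for FBXW5 and -1.33 for FBXO9, from 1 array assumed to vary like those of the other days, and 0 passed.

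At 60 days 15 of the 72 probes passed (20.8%), 9 higher and 6 lower, where 14.2% of all tested probes passed, 7.44% higher and 6.75% lower. By 1 probe per gene, 10 of 55 genes passed (18.2%), 6 higher and 4 lower, against 13.1% of all genes, 6.09% higher and 7.05% lower. Most of these changes were small. Only FBXO18, FBXW5, the FBXO25 probe, FBXO9 and 1 probe of FBXW2 changed by 1.87-fold or more, and the other 10 lay between 0.18 and 0.65 on the log2 scale without their sign.

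Among the leucine-rich receptors, 2 FBXL genes rose and 1 fell by their brightest probe, and 13 of 16 did not pass. FBXL7, which targets the mitotic kinase Aurora A in human cells, had log2 ratios of 0.67, 0.42 and 0.87. It was 1.57-fold higher by the fitted ratio (limma adjusted p = 0.0122). Its 120-day spots were not well above background on any of the 3 arrays, so the size of that ratio is uncertain. FBXL8 showed the reverse, with -0.71, -0.45 and -0.40, and was 1.43-fold lower by the fitted ratio (limma adjusted p = 0.0151). Its 60-day spots were not well above background, so this size is uncertain too. FBXL22, a receptor of the sarcomere in the mouse heart, was 1.13-fold higher by the fitted ratio (0.18 ± 0.05, limma adjusted p = 0.0427) with dim 120-day spots. For dim spots a bound was sought, as the brighter group's mean over the higher of the dim spot and the lowest signal well above background. Each bound equalled the fitted ratio, so these folds are estimates and not firm minima.

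FBXL21, a receptor of the clock repressors CRY1 and CRY2 in the mouse, rose by 1 of its tested probes. That probe (EMBV3_08153) had ratios of 0.90, 0.23 and 0.43 at 60 days (0.52 ± 0.12, limma adjusted p = 0.0299), and 120-day spots above background on 2 of 3 arrays. Its brighter probe (EMBV3_40340) had 0.05, 0.19 and -0.24, a mean of 0.00 ± 0.26. The probes did not overlap at 60 days, and only the fainter passed.

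Among the FBXO genes, 3 of 34 rose and 3 fell by their brightest probe, and 28 did not pass. Besides FBXO18 and FBXO9, FBXO42, which targets p53 in human cells, was 1.46-fold higher, with ratios of 0.91, 0.47 and 0.25 (0.54 ± 0.14, limma adjusted p = 0.0454). FBXO40, a muscle receptor for the insulin receptor substrate IRS1 in the mouse, was 1.23-fold higher (0.30 ± 0.08, limma adjusted p = 0.0473). FBXO24 was 1.23-fold lower (-0.29 ± 0.06, limma adjusted p = 0.0217) and FBXO48 1.15-fold lower (-0.20 ± 0.05, limma adjusted p = 0.0415). All 3 arrays of the day had the sign of the mean for each of these 4 genes. Over 22 settings of the processing FBXO42 and FBXO40 passed in 4, FBXO48 in 6 and FBXO24 in 14. FBXO40 and FBXO48 were faint in both channels. Their mean log2 signals for 60 and 120 days were 7.87 and 7.57 for FBXO40 and 7.58 and 7.78 for FBXO48.

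FBXO6 and FBXO34 were called by a probe that is not the brightest of the gene. FBXO6 binds sugar chains of misfolded glycoproteins. Its fainter probe (EMBV3_30238) read 0.42, 0.30 and 0.28 over dim 120-day spots, 1.26-fold higher by the fitted ratio (limma adjusted p = 0.0137). Its brighter probe (EMBV3_38139) read -0.24, -0.16 and -0.01 and did not pass (limma adjusted p = 0.153). The FBXO6 probes thus had opposite signs with no overlap. For FBXO34 the fainter probe (EMBV3_19731) was 1.22-fold lower by the fitted ratio, with dim 60-day spots (limma adjusted p = 0.0209). The brighter FBXO34 probe had -0.23 ± 0.12 (limma adjusted p = 0.232), in the same direction.

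At 60 days the probes of 1 gene disagreed most for FBXW2, a WD40 receptor of the placental transcription factor GCM1 in human cells. Probe EMBV3_35894 had ratios of -1.08, -1.09 and -0.54 at 60 days and was 1.87-fold lower (-0.90 ± 0.18, limma adjusted p = 0.022). The brighter probe EMBV3_27786 had 1.08, 1.31 and 0.66 on the same arrays (1.01 ± 0.56, limma adjusted p = 0.255). The probes did not overlap at 60 days and had opposite signs on each of those arrays. Averaged over both probes, FBXW2 had a log2 ratio of 0.05 at 60 days. SPOP, a gene of another cullin ligase, had 60-day ratios like those of EMBV3_27786 (0.97, 1.39 and 0.70).

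FBXO18 and FBXO25 also had probes that did not follow the one described. The other FBXO18 probes had 60-day ratios of -0.01 ± 0.14 (EMBV3_02646) and 0.30 ± 0.30 (EMBV3_29258), and 30-day ratios of -0.19 and 0.52, none of which passed. On every array both lay below EMBV3_21017. The other 3 FBXO25 probes had 60-day ratios of 0.20, 0.18 and -0.28 and did not pass, among them the brightest, EMBV3_42801. Averaged over all probes of the gene, FBXO18 had 0.50 at 60 days and 0.69 at 30 days and FBXO25 0.28 at 60 days, and none of these passed (limma adjusted p = 0.103, 0.151 and 0.21). Which transcript each probe reads was not analysed here.

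**Figure D4:**
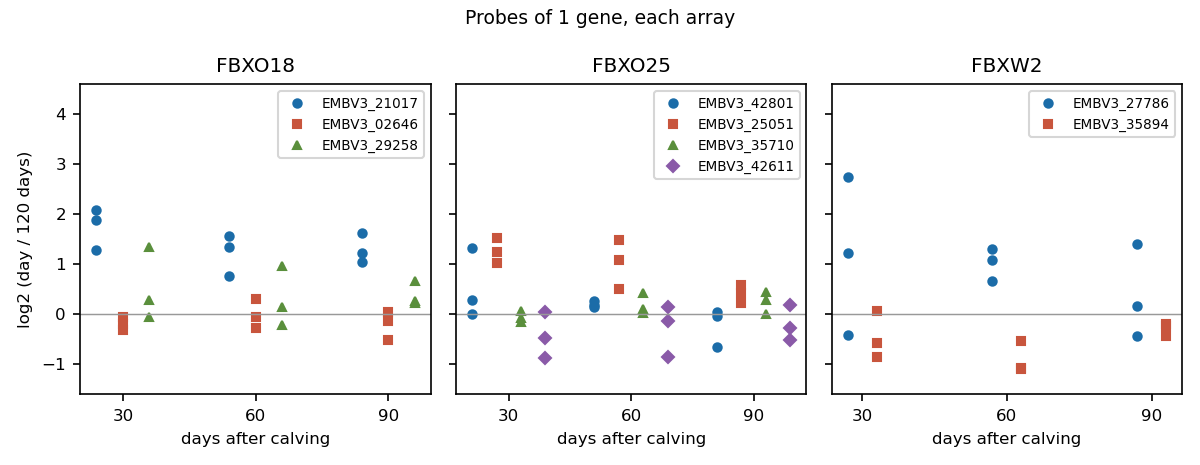
Log2 ratio of the day's RNA to 120-day RNA on each array for every tested probe of FBXO18, FBXO25 and FBXW2 at 30, 60 and 90 days after calving, with a symbol and colour per probe. EMBV3_21017 lies above the other FBXO18 probes, EMBV3_25051 lies above the other FBXO25 probes at 60 days, and the FBXW2 probes lie on opposite sides of 0 at 60 days.

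At 60 days the count depended on single arrays as well. Without replicate 1 of that day 1 F-box probe passed, without replicate 3 it was 2, without the 3 arrays of high macrophage markers 2, and in a fit of the 60-day arrays alone 0. Median ratios of the granulosa markers were 0.83, 1.89 and 1.56 on the 3 arrays and those of the lymphocyte markers -1.57, -0.25 and -0.74. The epithelial markers had -0.99, -3.64 and -0.70, with 3 of 9 lower by the test (KRT8, KRT18 and KRT19), and the neutrophil markers -1.15, -1.13 and -0.68, with 3 of 6 lower. The part of these cells in the F-box ratios was not tested.

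The best known receptors did not pass on any day. FBXW7, which marks cyclin E, MYC and NOTCH1, had log2 ratios of 0.02, 0.39 and 0.01 at 30, 60 and 90 days. FBXW11, a receptor of β-catenin and the inhibitor of NF-κB, had 0.28, 0.21 and 0.22, with all 9 arrays above 0. FBXO11, the receptor of BCL6, had -0.08, 0.33 and -0.01. FBXO32 (atrogin-1, of muscle wasting) had 0.01, 0.16 and 0.01. FBXO7, of mitochondrial quality control, had -0.13, -0.05 and -0.12. The standard errors of these ratios ran from 0.14 for FBXW11 to 0.27 for FBXO11.

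Of the well-known members, FBXL5 and FBXO5 came nearer to the threshold at 60 days. FBXO2 (-0.25 ± 0.07, limma adjusted p = 0.0505) and FBXL6 by EMBV3_11876 (-0.53 ± 0.15, limma adjusted p = 0.0517) were nearer still. FBXL5, the iron-sensing receptor of the iron regulatory protein IREB2, had ratios of -0.79, -0.36 and -1.68 (-0.94 ± 0.29, limma adjusted p = 0.0705). It lay near 0 at 30 days, at -0.45, 0.29 and -0.04, and overlapped with 60 days. FBXO5 (EMI1), an inhibitor of the anaphase-promoting complex and not a typical receptor, had 1.50, 0.11 and 0.95 (0.86 ± 0.24, limma adjusted p = 0.0564). In Cy3 its spots exceeded background on 0 of the 9 arrays, so the 120-day side was not measured and the size of its ratios is uncertain. FBXO43 (EMI2), its relative of the oocyte, had 0.51, 1.49 and -0.11 at 30 days and did not pass (limma adjusted p = 0.222).

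At 90 days 0 of the 72 probes passed by limma, where 0.00258% of all tested probes and 0.007% of all genes passed, and 12 (16.7%) had an unadjusted p under 0.05 against 11.4% of all probes. Without background correction 4 passed, among them FBXO18, FBXW5 and FBXO9 (1.28, 0.78 and -0.82). The highest ratios at 90 days were those of FBXO18, FBXW5 and FBXL16 (0.66 ± 0.46), and the lowest those of FBXO9, FBXL2 (-0.80 ± 0.29) and FBXL5 (-0.61 ± 0.29). FBXL4, a mitochondrial receptor that restrains mitophagy, had ratios of 0.64, 0.35 and 0.52 at 90 days, above all of its 30-day and 60-day arrays, and did not pass (0.50 ± 0.09, limma adjusted p = 0.234).

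Between the days themselves no F-box probe passed, and the background was 0% in each of these comparisons. The dye arrangement was the same on all arrays, so a constant dye effect cancels here. An unadjusted p under 0.05 was reached by 11 probes for 60 against 30 days (15.3%, against 12.2% of all probes). For 90 against 60 days it was 7 (9.72% against 9.79%) and for 90 against 30 days 4 (5.56% against 5.48%). In the limma F test for any difference among the days it was 10 (13.9% against 9.8%). The lowest limma adjusted p-values were, in this order, 0.343, 0.407, 0.823 and 0.476. The largest differences between 60 and 30 days were those of FBXL2 (0.89 ± 0.41), FBXO36 (0.71 ± 0.18, EMBV3_36453), FBXL5 (-0.87 ± 0.41) and FBXO22 (-0.68 ± 0.37, EMBV3_30872). For 90 against 60 days FBXL2 had the lowest difference (-0.85 ± 0.41) and FBXW2 (EMBV3_35894) had the highest (0.61 ± 0.25), followed by FBXL4 (0.46 ± 0.12). FBXO25 (EMBV3_25051) had the lowest difference between 90 and 30 days (-0.86 ± 0.25) and FBXO9 the highest (0.49 ± 0.18).

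Some members had a fixed sign. Of the 72 probes 14 (19.4%) had the same sign on all 9 arrays, 9 above and 5 below 0, where 14.6% of all tested probes did, 7.23% above and 7.42% below. Of the 15 called at 60 days 9 had it (60%), against 51.1% of all probes called at 60 days. The probes above 0 throughout were of FBXO18 (EMBV3_21017), FBXW5, FBXO25 (EMBV3_25051), FBXL7, FBXO6 (EMBV3_30238), FBXO40, FBXL21 (EMBV3_08153), FBXW11 and FBXO5. Those below 0 throughout were of FBXO9, FBXL8, FBXL6 (EMBV3_11876), FBXO2 and FBXO15. Other tested probes of FBXO18, FBXO25, FBXO6 and FBXL21 had no fixed sign. The other FBXL6 probes had 30-day, 60-day and 90-day ratios of 0.025, 0.015 and -0.036 (EMBV3_27719) and 0.022, 0.045 and -0.037 (EMBV3_32310). For the probes of fixed sign the 30-day, 60-day and 90-day ratios share the 120-day RNAs and the dye arrangement and do not count as separate evidence.

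Arrays of a day also differed widely for a few genes. The SD within days had a median of 0.23 over the 72 probes and 0.21 over all probes, and was highest for FBXW2 (EMBV3_27786, 1.08), FBXL16 (0.89) and FBXW4 (0.81). FBXL16 had 30-day ratios of 0.98, 2.47 and 0.11, 60-day ratios of 0.71, 0.86 and 0.66, and 90-day ratios of 0.27, -0.05 and 1.77. Its 120-day signal was 11.61, 11.17 and 8.40 on the 3 arrays that appeared to share a 120-day RNA with replicate 1 of 30 days. For FBXO9 the same 3 arrays read 11.17, 11.24 and 11.20, and for FBXO18 (EMBV3_21017) 11.565, 11.20 and 10.36. The arrays of replicate 3, which also appeared to share a 120-day RNA, read 10.65, 11.93 and 10.23 for that FBXO18 probe. Its 120-day signal thus varied within sets as well. None of the FBXL16 ratios passed, at 1.19 ± 0.46, 0.74 ± 0.46 and 0.66 ± 0.46 for the 3 days.

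Partners of the F-box proteins were read from the same fit. Of 22 measured genes of the SCF core and its neddylation enzymes, 0 passed at 30 and 90 days and 1 at 60 days, where 13.1% of all genes passed. That gene was the ubiquitin-conjugating enzyme UBE2D3, under a platform symbol UBE2D3P, at -0.93 ± 0.25 (limma adjusted p = 0.0488). SKP1 had 30-day ratios of -1.12, -1.23 and -1.79, 60-day ratios of -1.73, -0.90 and -1.53, and 90-day ratios of -1.22, -1.17 and 1.01. On 8 of 9 arrays it lay below 0, and it did not pass (limma adjusted p = 0.173, 0.0674 and 0.687). CUL1 had 0.12, 0.79 and 0.82 and RBX1 0.15, -0.10 and 0.03 at the 3 days, and neither passed. The list median was 0.02, -0.06 and -0.07, against -0.01, -0.05 and -0.01 for all genes.

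In the lists of this and the next paragraph the share called at 60 days was also under the 13.1% of all genes. The lists are short and were not tested as sets, so these shares cannot be set apart from that of all genes. Of the 9 measured subunits of the COP9 signalosome, which removes NEDD8 from cullins, COPS6 rose at 60 days (0.99 ± 0.22, limma adjusted p = 0.0278) and the others did not pass on any day. Of 9 F-box proteins known under other names, ECT2L rose at 60 days (0.70 ± 0.12, limma adjusted p = 0.0155). LMO7 had the largest ratio there (-2.32 ± 0.68, limma adjusted p = 0.0612), and TSPAN17 had 1.01, 1.02 and 1.71 at the 3 days. Of 20 genes of other cullin ligases, 1 passed at 30 days, where 0.287% of all genes passed, and 2 at 60 days. DCAF8, a receptor of CUL4 ligases, rose at 30 days (1.05 ± 0.13, limma adjusted p = 0.0472) and at 60 days (1.34 ± 0.13, limma adjusted p = 0.00724). The cullin CUL5 rose at 60 days (0.47 ± 0.09, limma adjusted p = 0.0184), and the other 18 did not pass.

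Among 26 transcripts of proteins that F-box ligases mark, 1 rose and 1 fell at 60 days, against shares of 6.09% higher and 7.05% lower over all genes, and 0 passed at 30 and 90 days. FOXO1, a substrate of SKP2, rose (1.61 ± 0.43, limma adjusted p = 0.0471) and CRY2, a substrate of FBXL21, fell (-0.18 ± 0.04, limma adjusted p = 0.0347). MYC and MCL1, both substrates of FBXW7, had -1.75 ± 0.48 and -1.72 ± 0.47 at 60 days and did not pass (limma adjusted p = 0.0523 and 0.0514). These are levels of RNA, and the proteins on which the ligases act were not measured. The list median of -0.07 at 60 days lay beside -0.05 for all genes.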

How the data were processed

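Per the file headers, the deposited array files hold mean and median pixel intensities and local background for each spot, neither background-subtracted nor normalised. Scanner and scan software: not given in the sources used here. Per the labels' protocols, RNA was amplified in rounds of T7 transcription and labelled chemically. The authors' deposited value table holds log2 values of unstated scale, centring and direction. Its columns correlated with the log ratios of their own arrays at r from -0.594 to 0.624. The best correlations (r from 0.729 to 0.919) were with channel differences that involved other arrays. Most of these differences mixed channels of different arrays, and some ran Cy3 minus Cy5. The value table was not used for results. Same-numbered arrays of 30 and 60 days deviated together (r = 0.34, 0.51 and 0.382), so the numbers paired those days.

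In limma 3.58.1 (R 4.3.3, data.table in version 1.17.8), mean intensities were corrected with normexp (offset 50) and normalised by loess within arrays. Probes above the mean of 153 negative control spots by 2 SD in either channel on at least 3 arrays were tested (38823, 88.6%). 1 model over 9 arrays gave each day's log2 ratio, with 6 residual and 1.35 prior degrees of freedom, and Benjamini-Hochberg adjustment over all probes (threshold 0.05). Errors are model SEs, and the number of arrays limits precision. The labels call the arrays biological replicates. Channel signals were normalised between arrays by Aquantile.

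A gene stands for its brightest tested probe. Symbols come from the platform's table, and all 57 were found in RefSeq's ARS-UCD2.0 gene table. Named were members that passed (at most 12 per comparison by smallest p), genes whose probes disagree in sign, a fixed set of well-known members, the 3 highest and lowest per comparison, SKP1, CUL1, RBX1 and up to 4 genes of each companion list. Those past the limit of 12 at 60 days, and FBXO43, FBXW4, FBXL6, FBXO2 and FBXO15 were added after their values were seen. Members and lists were chosen with earlier results of these data known. The model was tested on simulated data. Alternatives covered background, loess, filters, pixel summary, blocks, moderation, probe averaging, fewer arrays and, chosen after seeing the data, scaling between arrays and a fit without the 3 arrays of high macrophage markers.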

Additional observations from a re-analysis of the deposited data

How the results depend on the processing

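The numbers of F-box probes called against 120 days were 3, 15 and 0 at 30, 60 and 90 days. Without background correction they were 7, 6 and 4. At 30 days the count was 0 with median centring, with trend and robust moderation, with only the arrays compared, with the replicate block and without the 3 arrays of high macrophage markers, 1 by the mean of a gene's probes and 5 with the 120-day RNA as a block. With any 1 array left out it was 0 to 2. At 60 days the count was 2 with median pixel intensities, 2 with scaling between arrays, 2 without the arrays of high macrophage markers, 0 with only the arrays compared and 5 by the mean of a gene's probes, and with any 1 array left out 1 to 16. With the replicate block it was 5. The numbers paired 30 with 60 days, where the replicate block also gave 0 calls. They did not pair 90 days, whose replicates 1 and 2 correlated with the opposite numbers of the other days (r from 0.39 to 0.577, against -0.688 to -0.294 with their own), and whose replicate 3 gave -0.295 and 0.187. That crossed pairing is the 120-day RNA block. Averaging probes reversed FBXW2 at 60 days, to a log2 ratio of 0.055. The ratios of FBXO9 stayed between -1.61 and -1.29 at 30 days and between -1.16 and -0.80 at 60 days over 22 settings, and passed in 13 and 18 of them. FBXW5 passed in 7 and 19 and FBXO18 in 8 and 14. At 60 days FBXO42 and FBXO40 passed in 4 of 22 settings, FBXO48 in 6 of 22 and FBXL22 in 5 of 21. Comparisons between days, and the F test, gave 0 calls in each setting run. Aquantile leaves ratios as they are by construction. Faint spots on 1 side leave the size of the ratios of FBXL7, FBXL8, FBXL22, FBXO6, FBXO34 and FBXO5 uncertain. The cause of the changes was not tested.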
